A study of Homo sapiens with 4 samples.

Results

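Chromatin accessibility was examined at 10 genes of the TGF-beta and BMP pathways, namely TGFB1, TGFB2, TGFB3, INHBA, BMP4, BMP7, TGFBR1, TGFBR2, SMAD7 and GREM1, in human fibroblasts with and without ΔNp63α. A peak was assigned to a gene when its summit lay in the gene body or within 50 kb of any annotated transcription start site (TSS) of that gene. This rule took 104 of the 101142 peaks of the control list and 112 of the 109486 peaks of the p63 list on chromosomes 1 to 22, X and Y. Of these, 63 and 67 were open regions, meaning peaks that reached a −log10 q of at least 10, out of 56680 and 62343 open regions in all. All 10 genes had at least 1 open region in each list.

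The assay was ATAC-seq, in which a transposase inserts sequencing adapters into accessible DNA. It was performed in BJ cells, an established human foreskin fibroblast line. The 4 samples formed 2 groups of 2 by their genotype labels. The control group (CTR, named empty in the labels) expressed KLF4 alone, and the other (p63) expressed wild-type ΔNp63α together with KLF4, so KLF4 was common to both. Per the study's methods, the lines were polyclonal, carried doxycycline-inducible constructs and were treated with 1 µg per ml doxycycline for 72 h, and a replicate was a new induction of the same lines. The data hold neither cells without KLF4 nor cells with ΔNp63α alone, and 1 peak list was deposited per group. No spread between replicates could therefore be given for any value, no test between the groups was possible, and each difference below is a difference between 2 lists.

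TGF-beta ligands, activins and BMPs are secreted dimers that bring type I and type II serine/threonine kinase receptors together, and the activated type I receptor phosphorylates SMAD proteins that enter the nucleus. Secreted antagonists hold ligands away from the receptors, and inhibitory SMADs act inside the cell as negative feedback. In fibroblasts TGF-beta drives matrix production, whereas in epidermis TGF-beta restrains and BMPs help to shape keratinocyte growth and differentiation. ΔNp63α is the main p63 isoform of basal keratinocytes, and KLF4 is a zinc finger factor of epidermal differentiation.

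The windows shown first are those with a p63 site, those of regions absent from the other list that held a single unit of that site or an AP-1 motif, the BMP7 region with the second highest pileup ratio, and the regions with the highest and the lowest ratio. The remaining absent regions are given by their values further on. Each window runs from 100 bp before to 100 bp after the summit, read from hg38 on the plus strand. The p63 site is the p53/p63 family motif of 20 bases, which joins 2 units of 10 bases. A match kept the C and G of both cores and had at most 3 mismatches at the other 16 positions. A perfect single unit of 10 bases was searched as well, an addition made after the data were seen. AP-1 was searched as TGACTCA or TGAGTCA, on both strands as for all motifs.

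Capitals mark a p63 site in the next 2 windows, a single unit in the 3 windows that follow and an AP-1 motif in the sixth. The last 2 windows held none of these and are shown because they had the highest and the lowest pileup ratio.
BMP7 intron 4, absent from the CTR list, chr20:57179231-57179431: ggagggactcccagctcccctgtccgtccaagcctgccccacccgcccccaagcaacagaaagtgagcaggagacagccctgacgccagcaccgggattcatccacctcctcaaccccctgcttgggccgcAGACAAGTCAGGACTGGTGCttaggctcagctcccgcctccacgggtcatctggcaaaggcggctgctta
TGFBR2 upstream, open in both lists, chr3:30578581-30578781: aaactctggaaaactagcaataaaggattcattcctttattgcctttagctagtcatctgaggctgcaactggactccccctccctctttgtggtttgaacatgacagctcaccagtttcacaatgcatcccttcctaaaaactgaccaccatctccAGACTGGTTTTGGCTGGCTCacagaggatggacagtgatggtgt
BMP7 intron 2, p63-only, chr20:57223662-57223862: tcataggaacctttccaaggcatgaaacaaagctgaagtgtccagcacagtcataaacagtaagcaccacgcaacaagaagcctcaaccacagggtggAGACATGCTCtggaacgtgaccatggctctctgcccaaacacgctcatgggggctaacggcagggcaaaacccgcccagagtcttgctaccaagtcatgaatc
BMP7 upstream, absent from the CTR list, chr20:57314561-57314761: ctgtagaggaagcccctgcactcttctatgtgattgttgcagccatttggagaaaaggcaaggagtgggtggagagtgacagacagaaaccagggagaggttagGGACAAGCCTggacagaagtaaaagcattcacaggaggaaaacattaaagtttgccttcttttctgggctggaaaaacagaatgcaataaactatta
SMAD7 upstream, absent from the CTR list, chr18:48957228-48957428: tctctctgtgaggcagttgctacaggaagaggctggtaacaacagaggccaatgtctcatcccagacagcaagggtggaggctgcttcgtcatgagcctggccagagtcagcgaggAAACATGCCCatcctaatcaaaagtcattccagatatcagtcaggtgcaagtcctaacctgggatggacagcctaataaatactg
TGFB2 upstream, absent from the p63 list, chr1:218312613-218312813: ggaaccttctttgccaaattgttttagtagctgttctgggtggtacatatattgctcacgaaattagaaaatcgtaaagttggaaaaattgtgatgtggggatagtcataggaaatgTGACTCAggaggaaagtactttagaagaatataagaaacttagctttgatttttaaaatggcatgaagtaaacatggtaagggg
SMAD7 upstream, highest ratio, chr18:48963533-48963733: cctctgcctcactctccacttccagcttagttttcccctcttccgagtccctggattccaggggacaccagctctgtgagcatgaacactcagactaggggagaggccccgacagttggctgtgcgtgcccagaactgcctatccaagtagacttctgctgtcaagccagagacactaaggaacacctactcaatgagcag
BMP4 upstream, lowest ratio, chr14:53980348-53980548: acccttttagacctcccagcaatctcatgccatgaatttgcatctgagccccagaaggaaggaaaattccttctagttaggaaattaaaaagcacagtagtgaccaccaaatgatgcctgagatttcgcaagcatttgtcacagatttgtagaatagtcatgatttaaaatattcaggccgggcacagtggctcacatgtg

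The values behind these regions come from the peak caller. The pileup is the number of reads stacked at the summit, and it was solved exactly from the deposited fold enrichment and −log10 p together with the local background. The background coverage was 1.18 reads for CTR and 1.13 for p63, a p63/CTR ratio of 0.958. In both lists the open regions had a median pileup of 33 reads and a lowest pileup of 15, so weaker sites were not detectable as open. More reads were needed where the local background was higher. A CTR peak of 29 reads at the canonical TSS of BMP4, over a local background of 6.77, was below the threshold. Markers of the labelled cell type were checked by open regions within 1 kb of their TSS. Of 10 fibroblast genes 9 had one in each list, the exception being COL3A1. The counts for other cell types were 2 (CTR) and 3 (p63) of 10 keratinocyte genes, 0 of 4 endothelial genes in each list, and 3 (CTR) and 1 (p63) of 4 leukocyte genes. The part of these other cell types in the results below was not tested.

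The open regions of the pathway genes were for the most part common to both lists. Of the 63 CTR regions 56 overlapped an open region of the p63 list by at least 1 bp, and 7 were CTR-only (11.1%, against 16.5% over all CTR open regions). Of the 67 p63 regions 56 were shared and 11 were p63-only (16.4%, against 23.9% over all p63 open regions). Both list-only shares were thus below those of the whole lists. The larger number of p63-only regions depended on the threshold: at a −log10 q threshold of 20 there were 9 of each kind, and when both lists were reduced to the same number of strongest peaks there were 8 of each. Among the 7 CTR-only regions, 5 overlapped a weaker p63 peak and 2 overlapped no deposited p63 peak, which was 3.17% of the CTR regions against a background of 3.29%. Among the 11 p63-only regions, 6 overlapped a weaker CTR peak and 5 overlapped none (7.46%, against 12.0%). Regions without any overlapping peak in the other list are called absent from it.

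By gene, CTR-only regions occurred at 5 of the 10 (TGFB2, TGFB3, TGFBR2, BMP4 and SMAD7), compared with 45.0% of the 18629 protein-coding genes that had an open region by the same rule. Genes with p63-only regions numbered 6 (TGFB2, TGFBR1, TGFBR2, INHBA, BMP7 and SMAD7), compared with 62.5%. A CTR region absent from the p63 list was found at 2 genes (TGFB2 and SMAD7), against 12.2% of coding genes, and a p63 region absent from the CTR list at 3 (TGFB2, BMP7 and SMAD7), against 39.9%. TGFB1 and GREM1 had no list-only region. BMP7 had the highest p63-only share, 3 of 7 regions (42.9%), and TGFB3 had the highest CTR-only share, 1 of 3 (33.3%).

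**Figure D1:**
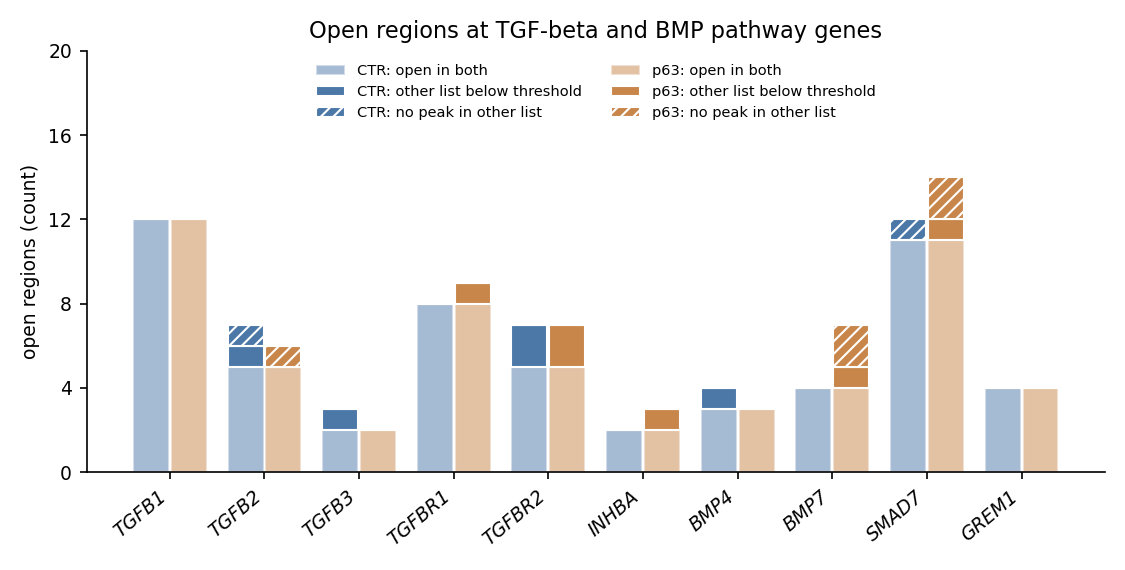
Number of open regions (y axis) at each of the 10 genes (x axis) in the CTR list (blue) and the p63 list (brown), with pale bars for regions open in both lists, full colour for list-only regions with a weaker peak in the other list and hatching for those with none. TGFB1 and SMAD7 have the most regions, TGFB1 and GREM1 have only shared regions, and BMP7 has 3 list-only regions, all of the p63 list.

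Regions with overlapping peaks in both lists, open in at least 1 of them, were paired, and the p63 pileup was divided by the CTR pileup after scaling by the background coverage. The pathway genes had 67 such pairs. Their median log2 ratio was 0.10, with quartiles of −0.15 and 0.33, beside a median of 0.06 and quartiles of −0.22 and 0.37 over all 62127 pairs, and 39 of the 67 lay above 0. At least 1.5 times higher in p63 were 7 pairs (10.4%, against 14.5% of all pairs), and at least 1.5 times lower were 4 (5.97%, against 8.23%). Without the scaling these counts were 5 and 6. The 95% interval for counting error, which takes no account of the spread between replicates, lay above a ratio of 1 at 7 pairs (10.4%, against 9.51%) and below 1 at 2 pairs (2.99%, against 2.04%). These shares were near those of all pairs or below them.

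**Figure D2:**
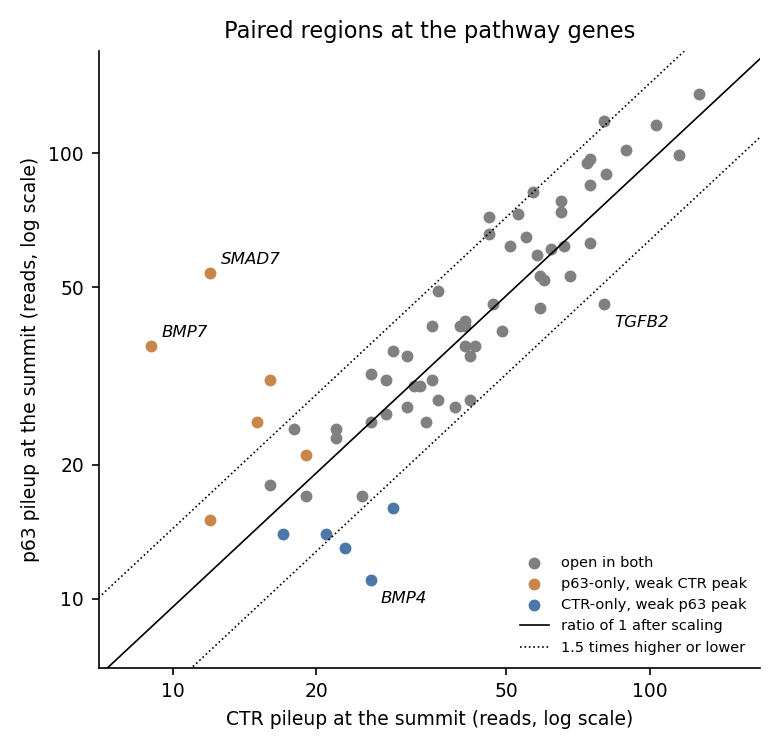
Pileup at the summit in the CTR list (x axis, reads, log scale) against the p63 list (y axis, reads, log scale) for the 67 paired regions; grey points are open in both lists, brown points p63-only and blue points CTR-only, the solid line is a scaled ratio of 1 and the dotted lines a ratio of 1.5 either way. Most points lie between the dotted lines, and the farthest above them are 1 SMAD7 region (12 reads in CTR, 54 in p63) and 1 BMP7 region (9 in CTR, 37 in p63).

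The TGF-beta ligands had 22 open regions in CTR and 20 in p63, of which 19 in each were shared. TGFB1 (ENSG00000105329.11, chromosome 19, 41301587 to 41353922, minus strand) encodes the most widely studied of these ligands. All 12 of its CTR regions and all 12 of its p63 regions were shared. The nearest coding TSS of these regions was that of CCDC97, TMEM91, B9D2, EXOSC5 or BCKDHA, and never that of TGFB1. The region at its canonical TSS held 53 reads in CTR and 73 in p63, a log2 ratio of 0.52, with an interval of the ratio from 0.996 to 2.09 that took in 1. Its summit lay 188 bp (CTR) and 185 bp (p63) from the TSS of TGFB1, but 59 bp and 62 bp from a TSS of TMEM91. A region 14051 bp upstream, nearest to a TSS of B9D2, held 57 and 82 reads, a ratio of 1.5 (interval 1.06 to 2.14). It was the only TGFB1 pair past 1.5 times. The others ranged from −0.30 to 0.52 on the log2 scale, and 7 of the 12 pairs were above 0. By the ratio of fold enrichments, which also takes in the local background, the upstream region had a log2 value of 0.33.

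TGFB2 (ENSG00000092969.12, chromosome 1, 218345336 to 218444619, plus strand), a further ligand of the same receptors, had pairs that were lower in p63 at 4 of 6 regions, with a median log2 ratio of −0.35. The strongest was in intron 1, 32105 bp from the canonical TSS, at 218376938 to 218377810. It held 80 reads in CTR and 46 in p63, and was above the threshold in each. The ratio of 0.600 (interval 0.408 to 0.874) was at percentile 4.78 of all pairs, and the log2 ratio of fold enrichments was −0.41 beside −0.74 for the pileup. A neighbouring intron 1 region at 35308 bp went from 29 reads in CTR to 16 in p63, below the threshold there, with a log2 ratio of −0.80 and an interval from 0.292 to 1.10. At the TSS itself the pileup was 49 reads in CTR and 40 in p63, a log2 ratio of −0.23 that counting error alone could span.

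Each list also had 1 TGFB2 region that was absent from the other. The CTR region, 32623 bp upstream at 218312467 to 218313102, is the window with the AP-1 motif shown above. It held 21 reads (fold enrichment 9.82, −log10 q 17.0), and its nearest coding TSS was that of RRP15. The p63 region, in intron 6 at 218439690 to 218439990 and near the start of the noncoding transcript TGFB2-OT1, held 19 reads (fold enrichment 9.40, −log10 q 15.4). At a like local background (within 10%), the lowest pileup deposited was 6 reads in the other list in each case.

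TGFB3 (ENSG00000119699.8, chromosome 14, 75958097 to 75983011, minus strand), which encodes the third TGF-beta ligand, had 3 CTR and 2 p63 regions. Its own start region held 47 reads in CTR and 46 in p63, a log2 ratio of 0.03. The strongest region within 3 kb of any TGFB3 TSS held 65 and 78 reads, but it lay 10 bp (CTR) and 13 bp (p63) from a TSS of IFT43. The CTR-only region, 13728 bp upstream, held 21 reads in CTR and 14 in p63. Its log2 ratio of −0.52 was less than 1.5 times, so it was list-only by the threshold rather than by a large difference.

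INHBA (ENSG00000122641.11, chromosome 7, 41667168 to 41705834, minus strand) encodes the subunit of activin A, which signals through the same SMADs as TGF-beta. Its 3 pairs had a median log2 ratio of 0.58, the highest of the 10 genes. The region at the start of an alternative transcript, at 41704993 to 41705809, held 46 reads in CTR and 66 in p63. Its summit lay 2226 bp (CTR) and 2193 bp (p63) upstream of the canonical TSS. The ratio of 1.5 for this region had an interval from 1.01 to 2.23. The log2 ratio of fold enrichments there was only 0.16. In intron 2, at 41698648 to 41699083, 15 reads in CTR stood against 25 in p63, which made the region p63-only, but the interval from 0.882 to 3.55 took in 1. The remaining region, also in intron 2, held 41 and 37 reads.

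BMP4 (ENSG00000125378.16, chromosome 14, 53949736 to 53958761, minus strand), a BMP ligand that acts through BMP receptors and their own set of SMADs, had 4 CTR and 3 p63 regions and no p63-only region. The region with the lowest ratio of all 67 pairs lay 23623 bp upstream, at 53980301 to 53980566, and its window is shown above. It held 26 reads in CTR (fold enrichment 12.3, −log10 q 23.8) and 11 in p63 (fold enrichment 5.64, −log10 q 6.38). The ratio was 0.442 (interval 0.197 to 0.925), a log2 ratio of −1.18 at percentile 0.666 of all pairs, and the fold enrichments gave −1.13. Downstream of the gene, 31870 bp from the canonical TSS, 42 reads in CTR stood against 28 in p63, a log2 ratio of −0.52. At the start of an alternative transcript the counts were 60 and 52 reads, and at the canonical TSS the peaks were below the threshold in both lists, with 29 and 21 reads. All BMP4 pairs were at or below a log2 ratio of 0.01.

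BMP7 (ENSG00000101144.13, chromosome 20, 57168753 to 57266641, minus strand), a BMP ligand made by many epithelia, had 6 deposited CTR peaks and 16 deposited p63 peaks. The whole lists held 101142 and 109486 deposited peaks. Open regions at BMP7 numbered 4 and 7, the 4 CTR regions all being shared. The p63 peaks of BMP7 below the threshold held 7 to 19 reads. The canonical TSS had no open region in either list. In intron 2, at 57223701 to 57224090, 42879 bp from the canonical TSS and 923 bp from the TSS of an alternative BMP7 transcript, a weak CTR peak of 9 reads (fold enrichment 3.89, −log10 q 3.26) stood against 37 reads in p63 (fold enrichment 9.50, −log10 q 25.1). The ratio was 4.29 (interval 2.03 to 10.1), a log2 ratio of 2.10 at percentile 99.5 of all pairs, and the fold enrichments gave 1.29. The window holds the single unit AGACATGCTC, shown in capitals above, and no full p63 site.

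A further intron 2 region of BMP7, at 57205480 to 57206119, was open in both lists and held 46 reads in CTR and 72 in p63, a ratio of 1.63 (interval 1.11 to 2.42), although the fold enrichments differed by 0.32 on the log2 scale. The other 3 shared regions held 58 and 59, 28 and 31, and 25 and 17 reads. The p63 list added 2 weak regions with no CTR counterpart at any level. The region in intron 4, at 57179116 to 57179614, held 17 reads, and its −log10 q was the nearest to the threshold among all open regions of the 10 genes. It contained the site agaCaaGtcaggaCtgGtgc at 57179362 to 57179381, 41 bp from the summit, with 3 mismatches. The same window also held a KLF motif, in a spelling given further on and not marked by capitals above. The region 48020 bp upstream, at 57314463 to 57314819, held 16 reads (−log10 q 11.8) and the unit GGACAAGCCT, and its nearest coding TSS was that of SPO11. Just outside the threshold, a p63 peak downstream of BMP7 held 14 reads with a −log10 q of 9.54.

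The receptors TGFBR2 and TGFBR1 had 15 open regions in CTR and 16 in p63, 13 of them shared in each, and none was absent from the other list. TGFBR2 (ENSG00000163513.19, chromosome 3, 30606601 to 30694142, plus strand) encodes the type II receptor that binds the ligand. Its TSS region held 75 reads in CTR and 97 in p63, a log2 ratio of 0.43 with an interval of the ratio from 0.989 to 1.85. The upstream region with the p63 site agaCtgGttttggCtgGctc, at 30578738 to 30578757, was open in both lists and held 43 reads in CTR and 37 in p63. A p63 site by this rule was thus also present in a region with no more reads in p63 than in CTR.

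TGFBR2 had 4 list-only regions, 2 of each list, all with a weaker peak in the other list. The largest difference was in intron 1, 19457 bp from the TSS, with 23 reads in CTR and 13 in p63, a log2 ratio of −0.76 and an interval from 0.275 to 1.22. The p63-only regions, in intron 5 and in the untranslated part of exon 7, held 12 and 15 reads and 19 and 21 reads in CTR and p63, respectively. The other CTR-only region held 17 and 14 reads. These 3 differed by less than 1.5 times and were list-only because the peaks fell on either side of the threshold.

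TGFBR1 (ENSG00000106799.14, chromosome 9, 99104038 to 99154192, plus strand) encodes the type I receptor kinase that phosphorylates the SMADs of the TGF-beta branch. Its start region was the strongest start region of the 10 genes in both lists, with 115 reads in CTR and 99 in p63, a log2 ratio of −0.15. The p63-only region, 47069 bp upstream at 99057883 to 99058338, held 16 reads in CTR and 31 in p63, a ratio of 2.02 (interval 1.07 to 3.96), and its nearest coding TSS was that of COL15A1. A neighbouring shared region 47791 bp upstream held 36 and 28 reads, a log2 ratio of −0.30. The other 7 pairs of TGFBR1 lay between −0.15 and 0.48.

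SMAD7 (ENSG00000101665.10, chromosome 18, 48919853 to 48950965, minus strand), the inhibitory SMAD that blocks type I receptors and is itself induced by the pathway, had 12 CTR and 14 p63 regions. The region with the highest ratio of all 67 pairs lay 12668 bp upstream, at 48963357 to 48963866, near the TSS of the noncoding gene ENSG00000266905. It held 12 reads in CTR (fold enrichment 4.13) and 54 in p63 (fold enrichment 12.4). The ratio was 4.70 (interval 2.48 to 9.65), a log2 ratio of 2.23 at percentile 99.7 of all pairs, and the fold enrichments gave 1.59. None of the motifs searched was found in its window, shown above.

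A region 6363 bp upstream of SMAD7, at 48957252 to 48957472, was absent from the CTR list and held 53 reads in p63 (fold enrichment 5.37, −log10 q 20.9). Its local background was raised, at 9.06 reads, and CTR peaks at a like background were deposited from 19 reads upward, so moderate CTR coverage there could have gone unlisted. The window holds the single unit AAACATGCCC. Of the shared regions nearest to it, the region 5018 bp upstream held 59 reads in CTR and 53 in p63, and the region 1662 bp upstream held 65 and 74. The strongest region at a SMAD7 TSS, at an alternative transcript 8165 bp into the gene, held 74 and 95 reads, a log2 ratio of 0.42.

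Farther upstream of SMAD7 the local background was higher still, and each list had an absent region there. The p63 region at 48993059 to 48993848 held 87 reads over a local background of 22.7, and the CTR region at 48994201 to 48994490 held 53 reads over 16.5. Fold enrichments were 3.71 and 3.08, and the lowest pileups deposited at a like background in the other list were 40 and 30 reads. The regions did not overlap, but lay next to each other. In the same stretch, the shared region 46189 bp upstream held 80 reads in CTR and 118 in p63, a ratio of 1.54 (interval 1.15 to 2.07), but the fold enrichments of 5.47 and 5.60 gave a log2 ratio of only 0.03. The difference at this region was therefore in the reads and not in the enrichment over its surroundings. Without the SMAD7 window, an alternative chosen after the data were seen, the counts became 6 (CTR-only) and 8 (p63-only).

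GREM1 (ENSG00000166923.12, chromosome 15, 32718004 to 32745106, plus strand) encodes gremlin, a secreted BMP antagonist made by fibroblasts. It had 4 open regions in each list, all shared and all upstream. The nearest coding TSS of those 47933 bp and 35244 bp upstream was that of SCG5. The 4 regions held 22 and 23, 22 and 24, 34 and 25, and 31 and 27 reads in CTR and p63. The log2 ratios ran from −0.38 to 0.19, so no GREM1 region differed by 1.5 times. The peak nearest its TSS was below the threshold in both lists, with 13 reads in CTR and 16 in p63.

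**Figure D3:**
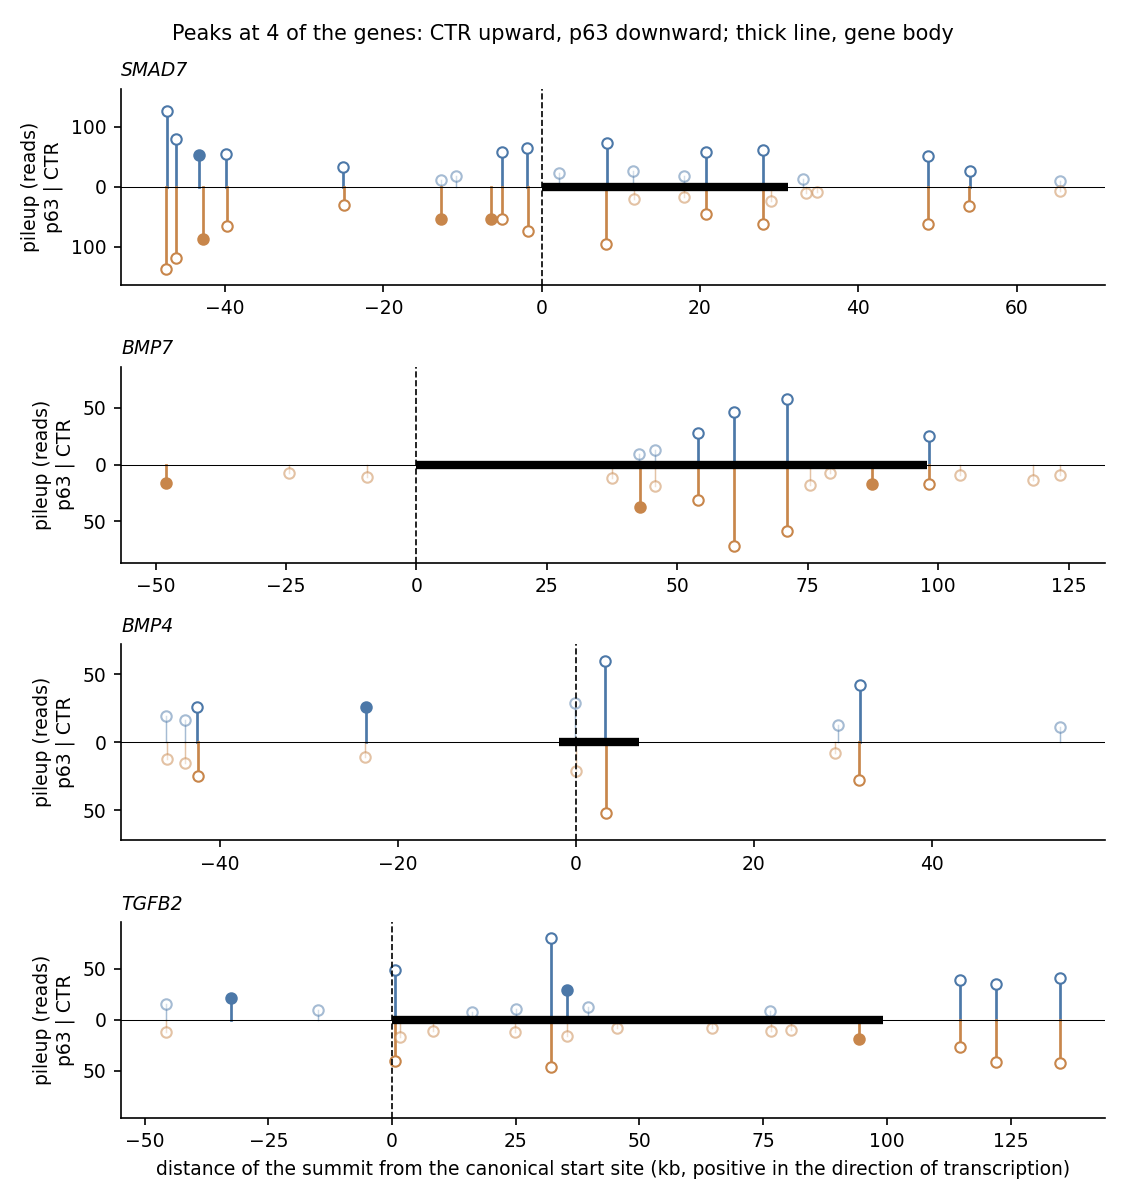
Pileup at the summit (y axis, reads) of all deposited peaks at SMAD7, BMP7, BMP4 and TGFB2 against distance from the canonical TSS (x axis, kb), with CTR upward in blue and p63 downward in brown; filled circles are list-only open regions, open circles shared regions, and faint circles peaks below the threshold. The p63-only regions of SMAD7 with 54 and 53 reads lie close together upstream of the gene, and the BMP7 region with 37 reads lies inside the gene.

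Across the roles, higher and lower pairs came in small numbers. Over all 62127 pairs, 14.5% were at least 1.5 times higher in p63 and 8.23% at least 1.5 times lower. No difference between roles is drawn from counts this small. The TGF-beta ligands had 1 pair at least 1.5 times higher in p63 and 2 lower of 21, with a median log2 ratio of 0.03. The activin and BMP ligands had 3 higher and 1 lower of 12 (median 0.05), the receptors 1 and 1 of 18 (median 0.08), and the inhibitors 2 and 0 of 16 (median 0.17). Over all 10 genes the ratio was above 4 at 2 pairs, those of SMAD7 and BMP7, and the next highest was that of TGFBR1.

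**Figure D4:**
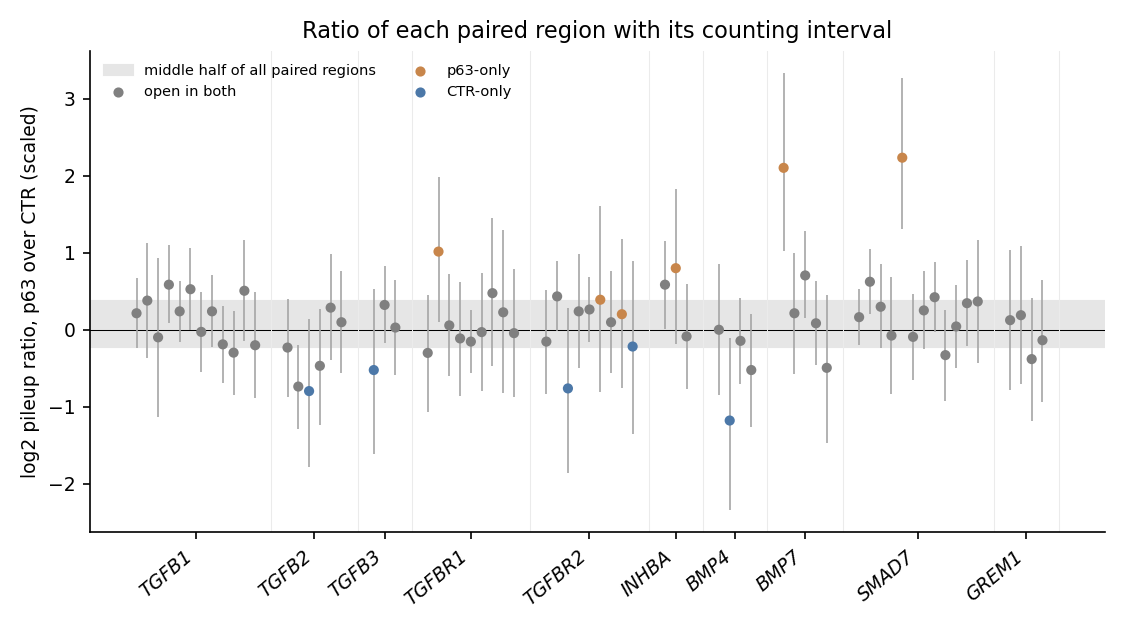
Scaled log2 pileup ratio of p63 over CTR (y axis) for each of the 67 paired regions, grouped by gene and ordered by distance from the canonical TSS (x axis); bars are 95% intervals for counting error only, colours mark list-only regions, and the grey band is the interquartile range of all pairs. The SMAD7 region at 2.23 and the BMP7 region at 2.10 stand above all others, and the BMP4 region at −1.18 is the lowest.

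Start sites were compared with the other regions. The rule took only regions in a gene body or within 50 kb of a TSS, whereas the whole lists have no such limit. A higher share near a TSS than in the whole lists was thus favoured by the rule, and no conclusion is drawn from it. Regions within 3 kb of any annotated TSS were 27 of 63 for CTR (42.9%, against 40.4% of all CTR regions) and 32 of 67 for p63 (47.8%, against 39.4%). Of these, 26 in each list were shared, so the list-only regions that near a TSS numbered 1 of 7 for CTR (14.3%, against 24.5% of all CTR-only regions) and 6 of 11 for p63 (54.5%, against 26.0% of all p63-only regions). The TSS could be that of another gene, and 53 of the 74 distinct open regions had a pathway gene of the list as their nearest coding TSS. The 6 p63-only regions near a TSS lay at TGFB2-OT1, a Y_RNA gene, ENSG00000266905, or alternative starts of TGFBR2, INHBA and BMP7. The open regions of the 10 genes had a median pileup of 42.0 reads in CTR and 41.0 in p63, beside 33 in each whole list. These medians rested on TGFB1 and SMAD7, and without them, a comparison chosen after the data were seen, they were 35.0 reads over 39 CTR regions and 31.0 over 41 p63 regions. Shared regions had a median of 44.5 reads in CTR and 43.5 in p63, list-only regions with a weaker peak in the other list 23.0 and 28.0, and regions absent from the other list 37.0 and 19.0. The threshold itself favours a low pileup in list-only regions. The median GC content of all open regions of the 10 genes was 49.8% in CTR and 52.2% in p63, beside 49.8% and 50.2% over all regions.

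Motifs within 100 bp of the summit were counted next. A p63 site was found in 1 of 63 CTR regions, against 0.932% of all CTR regions, and in 2 of 67 p63 regions, against 3.78% of all p63 regions. These were the shared TGFBR2 region in both lists and the BMP7 intron 4 region in the p63 list alone. Over the whole p63 list, 18.8% of the regions absent from CTR had such a site, and of the 5 absent regions of the pathway genes it was 1. The single unit was found in 6 of 67 p63 regions (8.96%, against 8.45%) and in 1 of 63 CTR regions (1.59%, against 5.50%). Among the p63-only regions it was in 3 of 11, those of SMAD7 and BMP7 shown above, beside 16.0% of all p63-only regions.

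AP-1, a factor family active in fibroblasts and keratinocytes, had its motif in 19 CTR regions (30.2%, against 26.9%) and 14 p63 regions (20.9%, against 25.4%). The KLF motif was spelled GGGCGGGGC, GGGCGTGGC, GGGTGGGGC or GGGTGTGGC, and was in 6 CTR regions (9.52%, against 7.40%) and 5 p63 regions (7.46%, against 7.14%). TEAD motifs (ACATTCCA, ACATTCCT, GCATTCCA or GCATTCCT) were in 8 CTR regions (12.7%, against 8.90%) and 6 p63 regions (8.96%, against 8.24%). The palindromic SMAD motif GTCTAGAC was in 0 regions of either list, with 0.134% and 0.196% over all regions, and the BMP-SMAD motif GGCGCC in 3 (4.76%, against 7.69%) and 2 (2.99%, against 7.15%). All these shares rest on small counts.

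In the promoter sequences of RefSeq (GRCh38.p14), 23 entries were found among 35116 for the genes other than BMP7. The AP-1 motif was in 1 of them (TGFBR2) and in 4.95% of all promoters, and the TEAD motif in 1 (TGFB2) and in 4.15%. The KLF motif was in 4 (3 of TGFBR1 and 1 of TGFB1), against 18.4%, and GGCGCC in 3 (TGFBR1, BMP4 and GREM1), against 19.2%. GTCTAGAC was in 0 of 23, against 0.202%. Entries of 1 gene can overlap, as those of TGFBR1 do.

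The same counts were taken for 49 further genes of both pathways, listed by role. All had an open region. Genes with a p63-only region numbered 34 (69.4%, against 62.5% of coding genes) and those with a p63 region absent from CTR 21 (42.9%, against 39.9%). Genes with a CTR-only region numbered 23 (46.9%, against 45.0%), and 6 had one absent from p63 (12.2%, the same as the 12.2% of coding genes). Counting a region once for each gene it belonged to, 42 of 354 CTR regions (11.9%) and 81 of 392 p63 regions (20.7%) were list-only, both below the 16.5% and 23.9% of the whole lists.

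By role, the further ligands, among them BMP2 and GDF15, had 1 CTR-only of 33 and 12 p63-only of 45 regions. The receptors had 10 of 68 and 17 of 74, the receptor-regulated, common and inhibitory SMADs 4 of 42 and 13 of 52, the extracellular regulators 14 of 106 and 21 of 113, and the target genes 6 of 62 and 15 of 69. The nuclear and ubiquitin regulators, such as the repressor SKI and the ligase SMURF1, were the exception in direction, with list-only shares of 7 of 43 in CTR and 3 of 39 in p63.

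**Figure D5:**
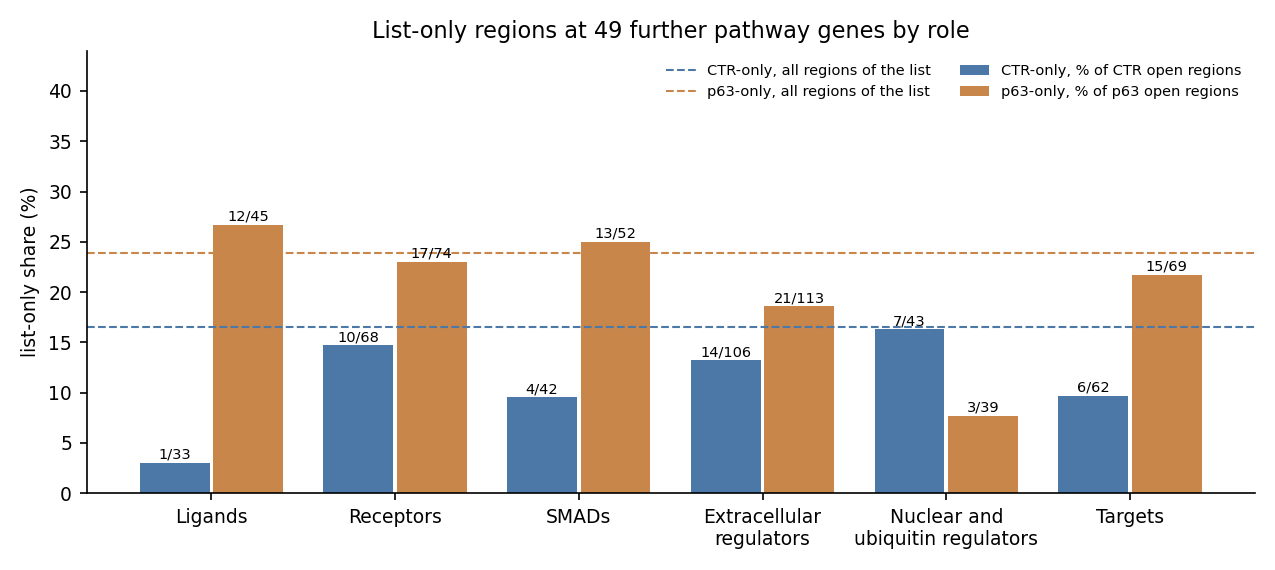
Share of open regions that were list-only (y axis, %) for 49 further pathway genes grouped by role (x axis), with CTR-only shares in blue and p63-only shares in brown, counts above the bars and dashed lines at the shares of the whole lists (16.5% and 23.9%). The p63-only share exceeds the CTR-only share in every role but the nuclear and ubiquitin regulators.

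The strongest of these regions absent from the other list were all in the p63 list. The highest −log10 q, 29.8 with 41 reads, was 17204 bp upstream of SMAD5, a signal transducer of the BMP branch. Next was a region of 42 reads (−log10 q 29.2) 33317 bp upstream of ID3, a BMP target that inhibits basic helix-loop-helix factors. ACVR1B, a type I activin receptor, followed with 37 reads at 28.0, but the nearest coding TSS to that region was that of TAMALIN. SMAD3, the transducer of the TGF-beta branch, had a region of 30 reads (23.8) within the gene, and LTBP1, which holds latent TGF-beta in the matrix, had 1 of 29 reads (22.3) within the gene. The region assigned to THBS1, an activator of latent TGF-beta, held 25 reads (23.0) and lay 418 bp from a TSS of FSIP1. GDF6, a BMP-family ligand, had 1 of 30 reads (21.6).

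TGFBR3, the co-receptor betaglycan, had a region of 29 reads (−log10 q 23.1) within the gene, at chromosome 1, 91746020 to 91746246. It was the only 1 of the 8 with a p63 site, aaaCatGcacaaaCttGaac at 91746157 to 91746176, with 3 mismatches. Beyond the 8, absent p63 regions of GDF15 and ENG also held a site with 3 mismatches. Of all p63 regions absent from CTR, 18.8% had such a site.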

How the data were processed

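ATAC-seq of BJ cells was analysed from the 2 peak lists deposited for the 4 samples, 1 list per group. Per the labels, reads were mapped to hg38 with Bowtie2 2.3.4.3 and peaks called with MACS2, per the study's methods from both replicates of a group. The MACS2 version and settings, the handling of duplicate reads and the shift for the transposase were not given in the sources used here. In the deposited lists each peak had a fold enrichment (a ratio over local background), a −log10 p-value, a −log10 q-value, a display score and a summit offset. The score was not used. These values were not scaled between lists by the authors. The lowest deposited −log10 q was 1.31 (CTR) and 1.30 (p63).

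Coordinates are 1-based, and genes came from GENCODE release 44. Whole-number pileups were solved from fold enrichment and −log10 p, within 0.001 for 100.0% of peaks. Pileup intervals are exact Poisson, ratio intervals are exact binomial (Clopper-Pearson) at 95%, and all cover counting error only. A summit pileup is a maximum over positions, and paired summits could lie apart. Python 3.11.15, pandas 2.3.3, scipy 1.17.1 and pysam 0.24.0 were used, after the scripts were tested on simulated data.

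The genes, lists and motifs were chosen with earlier results of these data known. All 10 genes were named. Described in full were regions absent from the other list, the highest and lowest pair of a gene, the strongest region at its TSS, and regions with a p63 site, and of the wider list at most 8 genes by −log10 q of an absent region. Other pairs were named after their values were seen. Alternatives changed the threshold, gene window, overlap, scaling, fold and motif rule.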

Additional observations from a re-analysis of the deposited data

How the results depend on the processing

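No paired analysis was possible because each list holds 1 value per peak for both replicates together, and leaving out a replicate could not be run for the same reason. Of 82 recomputed counts and medians, 55 were labelled as unchanged and 27 as moved. A count was unchanged within 1.5 times of the reported value, and a median log2 ratio within a fixed difference. The 2 median pileups without TGFB1 and SMAD7 were labelled as moved without such a limit. The labels had no class for a reversal of these values. When every deposited peak was kept, the counts were 104 for CTR and 112 for p63, of which 18 and 28 were list-only. Within 20 kb of a TSS or in the gene body there were 39 CTR and 44 p63 regions, and 3 CTR-only regions at 3 genes. Within 100 kb there were 96 and 104 regions, with 18 p63-only. Counting as list-only solely the regions absent from the other list left 2 CTR-only regions at 2 genes and 5 p63-only regions at 3 genes. By the ratio of fold enrichments 4 pairs were at least 1.5 times higher in p63 and 2 lower, at a fold of 2 the numbers were 3 and 1, and at a −log10 q threshold of 20 the number lower was 2. The number of p63 regions with a p63 site was 0 with at most 2 mismatches, 5 with at most 4, 1 within 50 bp of the summit, 4 over the whole peak and 6 with the single unit of 10 bases. Apart from the last, which was added after the data were seen, these follow from wider or narrower rules. Without scaling, 5 pairs were higher and 6 lower, so the excess of higher pairs over lower ones turned with the scaling. Of 22 recomputed ratios of single regions 21 moved by less than their counting interval, and the SMAD7 region 46189 bp upstream went from 0.62 to 0.03 with fold enrichments. The ratios without scaling could not leave their intervals, because dropping the scale shifts every log2 ratio by the same small amount. Only the ratios of fold enrichments could have moved. Without TGFB1 and SMAD7 the median pileup was 35.0 reads in CTR and 31.0 in p63. Depth limited the list to regions of at least 15 reads at the summit, and of more reads where the local background was raised.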
